A study of Mus musculus with 18 samples.

Results

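The genes described here encode the machinery that joins integrins to actin: Tln1, Vcl, Zyx, Pxn, Fermt3, Ilk, Actn1, Actn4, Flna and Vasp. They were chosen by name for their known roles, with earlier results of these data known. They are 10 of the 29875 genes in the count table, and all 10 passed the filter on low counts that left 13844 genes for testing. RNA was sequenced from dendritic cells (DCs), the antigen-presenting cells that travel from tissue to lymph node, which had been grown with GM-CSF from bone marrow of wild-type C57Bl6/J mice aged 8 to 12 weeks. All cells were matured with 200 ng/ml lipopolysaccharide (LPS) for 24 h from differentiation day 8 and loaded into migration chambers. RNA from the gels was taken 5 h after a gradient of the chemokine CCL19 was set up. Of the 18 libraries, 12 came from cells inside bovine collagen gels of 1.7, 2.6, 3.5 or 4.4 mg/ml with CCL19, and 6 from cells in the same chambers without collagen, as 2 suspension groups titled without CCL19 and plus CCL19, with 3 biological replicates in each of the 6 groups. The titles of the suspension libraries and their library names contradict each other on CCL19, so the groups keep their titles as names here, and which of the suspension groups received CCL19 is not settled. Such cultures are mixed and not sorted, and each library is a pool of cells.

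Integrins are transmembrane receptors that hold the extracellular matrix on the outside and, through a stack of adaptor proteins, actin filaments on the inside. Talin (Tln1) and kindlin-3 (Fermt3, the kindlin of blood cells) bind integrin tails and switch the receptors on, while vinculin (Vcl), paxillin (Pxn), zyxin (Zyx) and integrin-linked kinase (Ilk) build and strengthen the plaque. The α-actinins (Actn1, Actn4) and filamin A (Flna) crosslink actin filaments, and VASP (Vasp) promotes their elongation. DCs are a known case of cells that can move through three-dimensional matrices without integrin adhesion, pushing forward by actin flow, and that rely more on integrins on flat surfaces.

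Libraries held 13062944 to 28059839 counts in genes, with a median of 17344954. The labelled cell type was checked against its markers. All 11 DC markers, among them Ccr7, Cd83 and the MHC class II genes, passed the filter, and their summed level ran from 18370 to 55200 CPM (counts scaled to a common library size with TMM factors) in suspension and from 25000 to 59940 CPM in collagen. Markers of eosinophils were lower in collagen, with a summed level of 14.7 to 169 CPM (median 43.8) against 120 to 1364 CPM (median 358) in suspension, with a lower mean for all 9 markers and 8 of 8 tested called lower. Their part in the results below was not tested. Since these are bulk samples, fewer cells of a type and less RNA per cell cannot be told apart. Summed stromal markers (19.3 to 239 CPM in collagen, 25.0 to 119 CPM in suspension) and platelet markers (24.9 to 256 and 16.1 to 186 CPM) overlapped between the arms. Summed macrophage, neutrophil, basophil and mast cell, and lymphocyte markers overlapped as well. Called lower were 2 of 8 neutrophil, 1 of 6 basophil and mast cell and 1 of 11 DC markers, and called higher was 1 of 5 platelet markers. Of all genes tested, 12.4% were called lower and 7.78% higher in collagen. Among lymphocyte markers Ncr1 was at 0 in all suspension libraries.

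Of the members, 1 carries in the sequence just upstream of its start a CArG box, the motif bound by serum response factor, a regulator of actin cytoskeleton genes. RefSeq gave a promoter for 9 of the 10 members (build GRCm38.p6; no entry for Pxn), and in the 250 bases before the start a CArG box, searched on both strands, was found in Vcl, at position -227. Among all 32851 such windows, 1.47% held a CArG box. The stretch of Vcl that holds it (chr14:20929148-20929247, plus strand, 100 bases) is shown with the CArG box in capitals, beside the 100 bases just before the start of Fermt3 (chr19:7019470-7019569, minus strand), a member called lower in collagen, whose window held no match.
Vcl: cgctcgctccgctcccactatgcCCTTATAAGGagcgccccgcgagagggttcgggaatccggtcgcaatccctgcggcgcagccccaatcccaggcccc
Fermt3: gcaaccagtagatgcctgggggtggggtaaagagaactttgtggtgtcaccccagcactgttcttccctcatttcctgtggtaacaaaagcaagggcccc
The letters GGGCGG, a core of Sp1-type GC boxes searched on both strands, were present in the windows of Vcl, Zyx, Ilk, Actn1, Actn4 and Flna, and in 32.7% of all windows. A match is a description of these letters and not of binding.

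Levels between genes were compared as CPM per kb of exon. By this scale Vasp was the most abundant member, at 274 ± 56.1 CPM per kb (mean ± SD, n = 18 libraries), followed by Flna at 219 ± 112, Zyx at 169 ± 43.5 and Actn1 at 138 ± 58.1 CPM per kb. Tln1 had 73.9 ± 20.1, Fermt3 58.1 ± 17.7, Actn4 48.1 ± 9.67 and Pxn 45.5 ± 8.80 CPM per kb. The exon bases are those of all annotated transcripts of a gene together. For Zyx these are 5390 bases against 3188 in its longest transcript, and for Flna 9400 against 8456. The order of the members depends on this choice of length. Vcl, whose product binds talin and reinforces adhesions, was far lower, at 4.07 ± 1.76 CPM per kb. For Vcl, 2090 of its 8191 exon bases lie within exons of Ap3m1 on the opposite strand. If all its counts came from its other bases, the level over those would be 5.46 CPM per kb.

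Ilk stood apart from the other members in its counts and in how few exon bases it has to itself. It had 4 to 48 counts in a library (median 18), or 0.50 ± 0.32 CPM per kb (n = 18). In the annotation Ilk (chr7:105736592-105742925, GRCm38, plus strand) shares 2106 of its 2744 exon bases with exons of Taf10 and 355 with exons of Rrp8, both on the minus strand, which leaves 283 bases, or 10.3%, of its own. Taf10, a subunit of the general transcription factor TFIID, had a mean of 58.7 CPM in these libraries and Rrp8 19.9 CPM. Protein-coding genes that share an exon base with another gene on their own strand were set aside. Of the rest, 11, Ilk itself among them, shared at least 85% of their exon bases with the opposite strand. None of these was over 10 CPM per kb, and the highest stood at 1.2. Of the 11030 protein-coding genes with no shared base, 21.9% were over 10 CPM per kb. Whether the shared bases lowered the counts of Ilk was not tested. The libraries were made with a kit that keeps strand. Whether the counting used strand is not given in the sources used here. Values of Ilk are therefore given as uncertain.

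**Figure D1:**
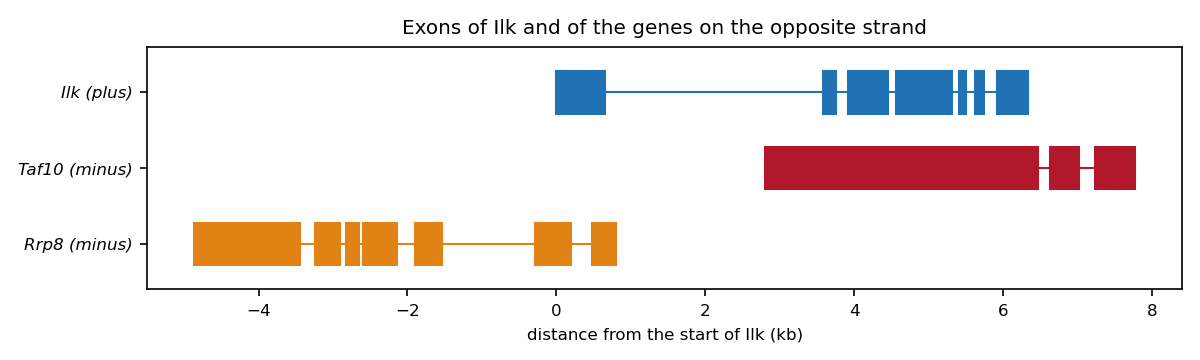
Exons (boxes) of Ilk on the plus strand and of Taf10 and Rrp8 on the minus strand, by distance from the start of Ilk in kb. All but 283 of the 2744 exon bases of Ilk lie under a box of the other genes.

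The comparison of cells in collagen with cells in suspension asks which genes differ once DCs are surrounded by a matrix. The collagen libraries all had CCL19, while the suspension groups differed in it by title. Effects of CCL19 and of the matrix thus cannot be fully told apart. Talin and kindlin-3, the integrin activators, were lower in collagen, at 0.653-fold and 0.672-fold of the suspension level. Filamin A stood at 0.612-fold but varied more between replicates, and did not pass the test unless the replicate was a block in the model or the filter on low counts was dropped. No member was called higher, and among the plaque proteins, α-actinins and VASP the fold ran from 0.891 to 1.11, leaving aside the uncertain Ilk. Thus 2 of 10 members were called at a false discovery rate (FDR) of 0.1, both lower, in edgeR's quasi-likelihood test across all 18 libraries, where 12.4% of all 13844 genes were called lower and 7.78% higher. The median log2 fold change of the 9 members other than Ilk was -0.17, against 0.00 (0.00269) over all genes, and 8 of the 9 were below 0, as were 49.8% of all genes. With offsets for GC content and length this median was 0.04 with 3 of the 9 below 0, and with the replicate block as well it was 0.03 with 4 of the 9 below 0.

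Tln1 (chr4:43531519-43562691) in suspension stood at 992, 875 and 963 CPM in replicates 1, 2 and 3 of the group titled without CCL19 and at 1158, 885 and 766 CPM in those of the group titled plus CCL19. In collagen it had 547, 733 and 571 CPM at 1.7 mg/ml, 577, 881 and 661 CPM at 2.6 mg/ml, 493, 701 and 547 CPM at 3.5 mg/ml, and 451, 652 and 577 CPM at 4.4 mg/ml. The arms all but separated, as 11 of the 12 collagen libraries were below the lowest suspension library, and replicate 2 at 2.6 mg/ml was the exception. The log2 fold change was -0.62 ± 0.16 (SE; adjusted p = 0.0187, edgeR). Within replicates the difference in mean log2 CPM was -1.06, -0.26 and -0.55, lower in 3 of 3.

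Fermt3 (chr19:6998958-7019469) in suspension had 393, 313 and 426 CPM in the group titled without CCL19 and 532, 574 and 342 CPM in the group titled plus CCL19. In collagen it had 343, 356 and 343 CPM at 1.7 mg/ml, 287, 303 and 167 CPM at 2.6 mg/ml, 278, 307 and 216 CPM at 3.5 mg/ml, and 294, 374 and 203 CPM at 4.4 mg/ml. The arms overlapped, with 8 of the 12 collagen libraries below the lowest suspension library, and the lowest values were those of replicate 3 at the 3 higher densities. Its log2 fold change was -0.57 ± 0.18 (SE; adjusted p = 0.0460, edgeR). All 3 replicates had a lower mean in collagen, by -0.61, -0.35 and -0.77 on the log2 scale.

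Flna (chrX:74223461-74249820) in suspension had 1782, 2615 and 5127 CPM in the group titled without CCL19 and 1472, 2671 and 3005 CPM in the group titled plus CCL19. In collagen it had 925, 2618 and 1885 CPM at 1.7 mg/ml, 1101, 2850 and 1966 CPM at 2.6 mg/ml, 854, 2356 and 1947 CPM at 3.5 mg/ml, and 651, 1299 and 1986 CPM at 4.4 mg/ml. Replicate 1 was the lowest of its group in all 6 groups, and the mean of the highest replicate was 2.30-fold that of the lowest, so the arms overlapped when pooled. Within replicates collagen and suspension did not overlap in 2 of 3, with differences of -0.90, -0.27 and -1.01 on the log2 scale. Vasp also did not overlap in 2 of 3, but in opposite directions, with 0.29 in replicate 1 and -0.50 in replicate 3. The share of all genes without such overlap is not given, so nothing is drawn from it. The log2 fold change of Flna was -0.71 ± 0.32 (SE; adjusted p = 0.157, edgeR), and with the replicate number as a block, -0.74 ± 0.17 (adjusted p = 0.00340, edgeR). With that replicate block 3 members were called, Tln1, Fermt3 and Flna, all lower, where 19.3% of all genes were called lower and 15.6% higher.

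**Figure D2:**
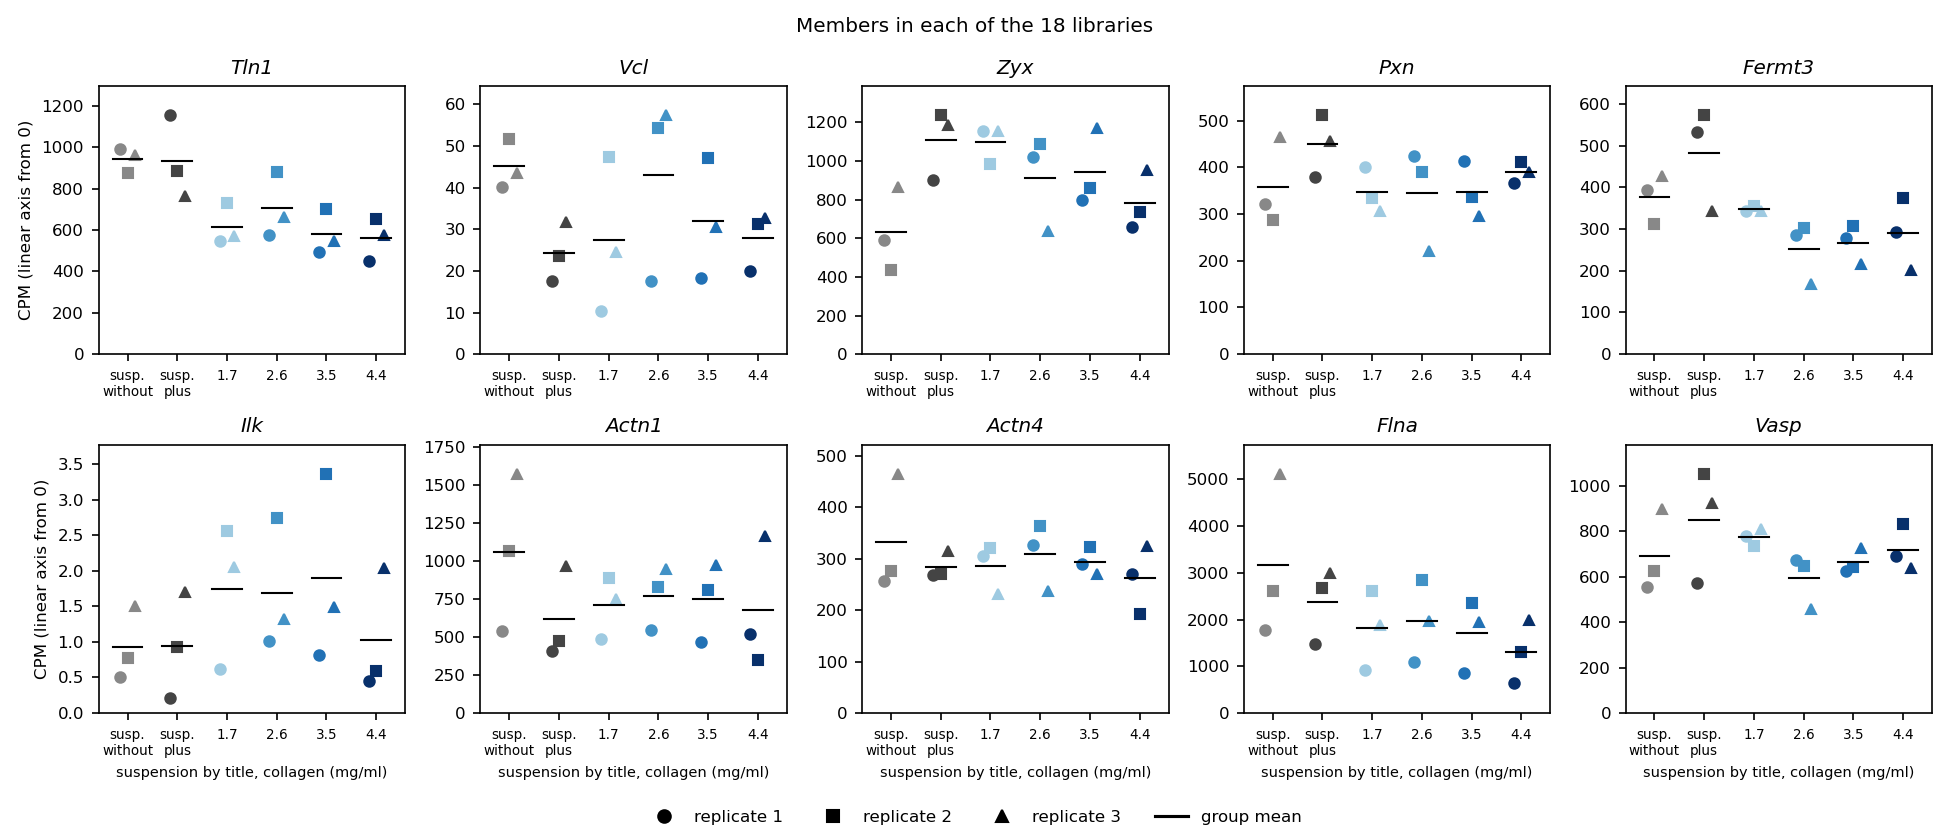
CPM (linear axis from 0) of each member in the 18 libraries, by group, with the collagen density in mg/ml, a marker shape for each replicate and a bar at each group mean. Tln1 was lower in 11 of 12 collagen libraries than in any suspension library, Flna followed the replicate, and Ilk had few counts everywhere.

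In a fit with offsets for the GC content and length of transcripts, the estimates of Tln1, Fermt3 and Flna were smaller in size. Over all genes tested, the median log2 fold change went from 0.22 over the 3459 genes of lowest GC content to -0.17 over the 3459 of highest, and from 0.23 over the 3460 genes with the shortest transcripts to -0.12 over the 3457 with the longest. Tln1, with 57.0% GC, was longer than 96.0% of genes, Flna (54.0% GC) than 96.2% and Fermt3 (57.5% GC) than 47.2%. Pxn, Vasp and Zyx, which were not called in the edgeR fits without offsets, had 57.7%, 58.0% and 56.6% GC. Whether GC content or length caused the differences was not tested. With offsets for GC content and length the estimate of Tln1 was -0.31 (adjusted p = 0.213, edgeR), which ended its call, that of Fermt3 -0.33 (adjusted p = 0.0814) and that of Flna -0.51 (adjusted p = 0.389). In this fit 1 member was called, Fermt3, where 11.0% of all genes were called lower and 10.1% higher. With the replicate block and the offsets together, Tln1 (-0.32, adjusted p = 0.0551), Fermt3 (-0.33, adjusted p = 0.0257) and Flna (-0.47, adjusted p = 0.0440) were called lower and Zyx (0.42, adjusted p = 0.0238) and Ilk (0.87, adjusted p = 0.0687) higher, where 18.6% of all genes were called lower and 19.7% higher.

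**Figure D3:**
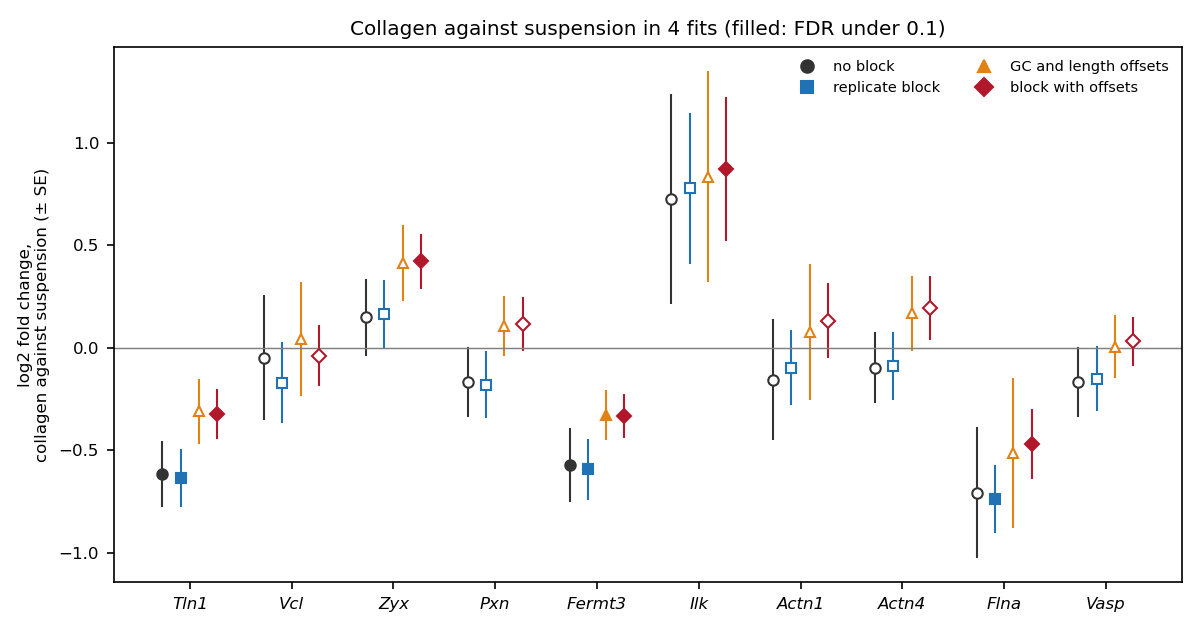
Log2 fold change of each member in collagen against suspension with its SE in 4 edgeR fits: without a block, with the replicate block, with GC and length offsets, and with both. Filled markers passed an FDR of 0.1; Tln1, Fermt3 and Flna were below 0 in all 4 fits, while the estimates of the other members except Ilk and Zyx lay within 0.2 of 0.

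Leaving out any replicate ended the calls of both Tln1 and Fermt3. The estimate of Tln1 was -0.36 (adjusted p = 0.35, edgeR) without replicate 1, -0.81 (adjusted p = 0.1005) without replicate 2 and -0.64 (adjusted p = 0.12) without replicate 3, and the adjusted p of Fermt3 was 0.265, 0.205 and 0.131. With no filter on low counts Tln1 (adjusted p = 0.089, edgeR) and Flna (adjusted p = 0.054) passed and Fermt3 did not (adjusted p = 0.11). Without replicate 1, 2 or 3 the called genes of the other adhesion lists described below fell from 18 to 12, 4 and 9. The share of all genes called is not given for the fits of this paragraph. Nothing particular to the members is therefore drawn from them.

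Zyx, which gathers at stretched actin fibres, differed more between the suspension groups than between the arms. It had 591, 434 and 864 CPM in the suspension group titled without CCL19 and 902, 1239 and 1186 CPM in the group titled plus CCL19, while collagen libraries ran from 635 to 1168 CPM. The suspension groups did not overlap, yet their difference did not pass (log2 0.82 ± 0.31 SE, unadjusted p = 0.0165, adjusted p = 0.761, edgeR). In collagen against suspension its log2 fold change was 0.15 ± 0.19 (SE; adjusted p = 0.652). This was not particular to Zyx. Means of Vcl (45.1 and 24.3 CPM) and Actn1 (1059 and 616 CPM) in the groups titled without and plus CCL19 also differed more than those of the arms.

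Vcl had a mean of 34.7 ± 12.8 CPM in suspension (SD, n = 6) and of 32.6 ± 15.6 CPM in collagen (n = 12). Its suspension libraries ran from 40.3 to 51.7 CPM in the group titled without CCL19 and from 17.5 to 31.8 CPM in the group titled plus CCL19. Its level followed the replicate, with the highest replicate mean 2.15-fold the lowest, and its log2 fold change was -0.05 ± 0.31 (SE; adjusted p = 0.941, edgeR). Pxn, a scaffold that recruits signalling proteins to adhesions, had 404 ± 88.7 CPM in suspension and 358 ± 60.8 CPM in collagen, a log2 fold change of -0.17 ± 0.17 (adjusted p = 0.577). The level of Vasp was 772 ± 213 CPM in suspension and 688 ± 101 CPM in collagen, with a log2 fold change of -0.17 ± 0.17 (adjusted p = 0.576). Pxn and Vasp were higher in collagen in replicate 1 and lower in replicates 2 and 3, so that their direction depended on the replicate. Ilk, at 0.94 CPM in suspension and 1.59 CPM in collagen, had a log2 fold change of 0.73 ± 0.51 (adjusted p = 0.384), on the few counts described above.

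The α-actinins are close paralogs that crosslink the same filaments, and their balance was compared within libraries as the log2 ratio of Actn1 to Actn4 counts. Actn1 had 838 ± 451 CPM in suspension and 726 ± 250 CPM in collagen, and Actn4 308 ± 79.5 and 288 ± 49.0 CPM. Neither passed, with log2 fold changes of -0.15 ± 0.30 (SE; adjusted p = 0.782, edgeR) and -0.10 ± 0.17 (adjusted p = 0.765). Counts of Actn1 exceeded those of Actn4 in all 18 libraries, by 1.53-fold to 3.98-fold. The mean log2 ratio was 1.27 ± 0.49 in collagen (SD, n = 12) and 1.3 ± 0.55 in suspension (n = 6), a difference of -0.03 (two-sided exact permutation test, p = 0.899, and p = 0.841 when permuted within replicates). The ratio ran from 1.53 to 2.11 in replicate 1 libraries and from 3.08 to 3.98 in replicate 3 libraries, without overlap. Replicate 2 libraries ran from 1.74 to 3.85 and overlapped both.

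Each density was also set against the same 6 suspension libraries, so the 4 comparisons share their controls. At 4.4 mg/ml Tln1 was called lower (log2 -0.75 ± 0.24 SE, adjusted p = 0.0612, edgeR), where 8.29% of all genes were called lower. At 3.5 mg/ml 0 members were called (2 at an unadjusted p under 0.05, and 1 called by DESeq2, where edgeR called 2.93% of genes lower), and at 2.6 mg/ml 0 (1 unadjusted, 1 by DESeq2, 3.58% of genes). At 1.7 mg/ml 0 members were called, with 1 at an unadjusted p under 0.05 and 0 by DESeq2, where 0.0% of genes were called lower. With the replicate block Flna was called at 4.4 mg/ml (-1.12 ± 0.25, adjusted p = 0.00419), beside Tln1 (-0.77, adjusted p = 0.0152) and Fermt3 (-0.59, adjusted p = 0.0595), where 16.2% of genes were called lower. The same 3 members were called at 3.5 mg/ml (10.4% of genes), Fermt3 alone at 2.6 mg/ml (-0.79, adjusted p = 0.0240, 9.62% of genes) and 0 at 1.7 mg/ml (1.42% of genes). With the block and the offsets together the 3 calls at 3.5 mg/ml were lost (adjusted p = 0.375 for Tln1, 0.186 for Fermt3 and 0.39 for Flna, edgeR), and Zyx was called higher there (0.54, adjusted p = 0.0644). Without replicate 2 at 4.4 mg/ml, which stood below the other replicate 2 libraries for Flna and Actn1, Tln1 stayed the member called there (-0.87, adjusted p = 0.0791, edgeR). The call of Tln1 at 4.4 mg/ml was lost without replicate 1 (adjusted p = 0.444, edgeR), without replicate 2 (0.264), without replicate 3 (0.203) and in a fit of the 4.4 mg/ml and suspension libraries alone (0.128). With GC and length offsets Tln1 was not called at 4.4 mg/ml (-0.38, adjusted p = 0.322), and with no filter on low counts Flna (adjusted p = 0.0558) and not Tln1 (adjusted p = 0.201) was. For the fits with offsets, without the filter or with libraries left out, the share of all genes called at a density is not given. Nothing particular to the members is drawn from the calls lost or gained in them.

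**Figure D4:**
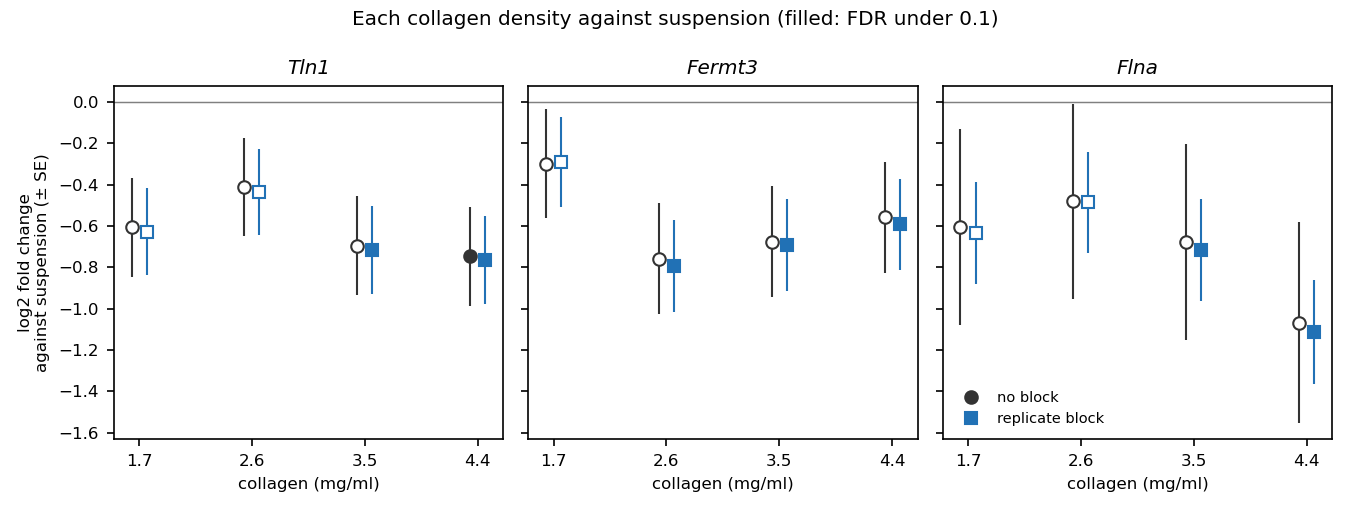
Log2 fold change of Tln1, Fermt3 and Flna at each collagen density (mg/ml) against the 6 suspension libraries, with its SE, without and with the replicate block in edgeR; filled markers passed an FDR of 0.1. Estimates were below 0 at all 4 densities, and with the block Tln1 and Flna passed at 3.5 and 4.4 mg/ml and Fermt3 at all but the lowest density.

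Whether the adhesion genes graded with the density of the gel was asked with a slope per mg/ml over the 12 collagen libraries. No member was called (edgeR; 0 at an unadjusted p under 0.05, and 0 by DESeq2), and slopes ran from -0.23 for Ilk to 0.06 for Pxn on the log2 scale. The slope of Flna was -0.18 ± 0.19 (SE; adjusted p = 0.975), and -0.19 ± 0.10 with the replicate block (adjusted p = 0.421), and that of Zyx -0.16 ± 0.11 (adjusted p = 0.881). Between 4.4 and 1.7 mg/ml 0 members were called as well (0 unadjusted, 0 by DESeq2). The background was as thin, with 0.00722% of all genes called in the slope and 0.00722% between the end densities, and 1.45% and 1.73% with the replicate block. Between the suspension groups 0 members were called, and 0.0% of genes, without the block (1 member at an unadjusted p under 0.05, 0 by DESeq2) and 0.0% with it (3 members unadjusted: Vcl, Zyx and Actn1). For every member the ranges of groups next to each other in the order of their means overlapped, and the highest group mean was 1.27-fold (Actn4) to 2.42-fold (Flna) the lowest.

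The rest of the adhesion machinery was read from 6 lists of 89 other genes, of which 79 were tested. In collagen against suspension 9 were called higher and 9 lower, where 7.78% of all genes were called higher and 12.4% lower, and the median log2 fold change was -0.04, against 0.00 (0.00269) over all genes. With the replicate block 18 were higher and 17 lower (15.6% and 19.3% of all genes), and without replicate 2 the total fell from 18 to 4. In the density slope 0 were called by edgeR, and 0 by DESeq2. The counts of the single lists are small and are read against the same 7.78% higher and 12.4% lower, and nothing particular to a list is drawn from them.

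Of the 11 tested integrin activators and partners of Ilk, 2 rose and 0 fell. Rap1b, the small GTPase that brings talin to integrins, rose 2.18-fold, from 209 ± 65.6 CPM in suspension (SD, n = 6) to 447 ± 146 CPM in collagen (n = 12; adjusted p = 0.00226, edgeR). Lims1, which encodes the PINCH adaptor of integrin-linked kinase, rose 1.73-fold (adjusted p = 0.0268). Thus Rap1b and Lims1 were higher in the libraries where Tln1 and Fermt3 were lower. The call of Rap1b held without each replicate in turn, and that of Lims1 in 1 of 3 such fits.

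Among 22 scaffolds and adaptors, 4 rose and 3 fell. Lpxn, the leukocyte relative of paxillin, rose 1.98-fold from 52.5 to 101 CPM (adjusted p = 0.0287, edgeR). Crk, an adaptor that binds phosphorylated paxillin and Cas proteins, rose 1.71-fold (adjusted p = 0.0349), and Cass4, a Cas protein, 1.89-fold from 4.47 to 8.99 CPM (adjusted p = 0.0873). The calls of Lpxn, Crk and Cass4 held in 1 of 3 fits each when a replicate was left out. Tns4, a tensin, fell to 0.406-fold, from 24.8 to 10.0 CPM (adjusted p = 0.00497), and was called in all 3 fits that left out a replicate.

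Of 7 kinases and phosphatases 1 rose and 2 fell. Ptpn12, the phosphatase PTP-PEST that acts on Cas and paxillin, rose 2.24-fold, from 38.3 ± 13 to 85.9 ± 29 CPM (adjusted p = 0.00190, edgeR). Ptk2b, the focal adhesion kinase relative Pyk2, fell to 0.669-fold (adjusted p = 0.0234) and Csk, the kinase that restrains Src, to 0.727-fold (adjusted p = 0.0696), and both calls were lost in all 3 fits that left out a replicate. With GC and length offsets the adjusted p of Csk was 0.471, and its estimate went from -0.46 to -0.20.

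Of 20 other actin crosslinkers and membrane linkers, 1 rose and 2 fell. Dbnl, an actin-binding adaptor at the cell cortex, fell to 0.527-fold, from 447 ± 109 to 240 ± 59.9 CPM (adjusted p = 0.00287, edgeR). Ezr and Rdx, which encode ezrin and radixin, proteins that tie actin to the membrane, went opposite ways, Ezr to 0.599-fold (adjusted p = 0.0450) and Rdx to 1.73-fold (adjusted p = 0.0933). The call of Ezr was lost with GC and length offsets (adjusted p = 0.184). When a replicate was left out, the call of Dbnl held in 2 of 3 fits, that of Ezr in 1 of 3 and that of Rdx in 0 of 3. Of 3 genes of the Ena/VASP list, the family members Enah and Evl and the partner Pfn1, 0 were called by edgeR. The most abundant, the profilin gene Pfn1, had 744 ± 107 CPM in suspension and 872 ± 199 CPM in collagen (1.16-fold, adjusted p = 0.457, edgeR).

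Of 16 actins and targets or cofactors of serum response factor, 1 rose and 2 fell. Mrtfa and Mrtfb, the actin-sensing cofactors of that factor, fell to 0.538-fold (adjusted p = 0.000746, edgeR) and 0.511-fold (adjusted p = 0.0324). Mrtfa went from 335 ± 82.7 to 177 ± 20.1 CPM, with suspension between 228 and 451 CPM and collagen between 144 and 210 CPM, without overlap, and its call held without each replicate in turn. Mrtfb was called in 1 of 3 such fits, with estimates from -1.22 to -0.38, and Actg1 in 2 of 3. Actg1 rose 2.30-fold (adjusted p = 0.00634) from 2.89 to 6.87 CPM, a low level for an actin gene; actin genes have near-identical copies between which reads can be lost, so its value is uncertain.

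**Figure D5:**
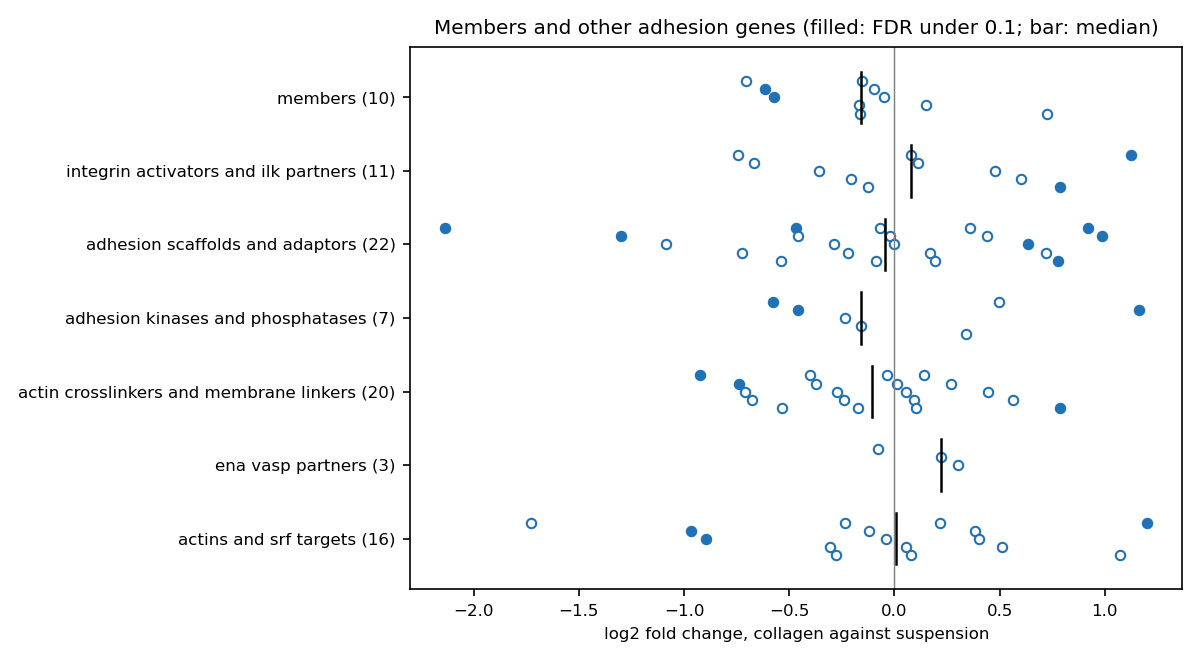
Log2 fold change in collagen against suspension (edgeR, no block) of the 10 members and of the tested genes of 6 other adhesion lists, 1 point a gene, filled where the FDR was under 0.1, with a bar at each median and the number of genes in brackets. The 18 filled points of the 6 lists fall on both sides of 0, and the 2 filled members are below 0. Of all genes tested, 12.4% were called lower and 7.78% higher.

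The genes whose log2 CPM ran most like that of each member over the 18 libraries were sought among 8939 genes with a mean of at least 5 CPM outside the members, which share libraries, depth and replicate differences with them. They were Polr2a for Tln1 (Pearson r = 0.96), Cdk4 for Fermt3 (0.96), Utp20 for Vcl (0.95), Akt1 for Flna (0.95) and Aldh9a1 for Actn1 (0.95). For the other members they were Man2c1 for Pxn (0.93), Crat for Vasp (0.92), Tsen34 for Zyx (0.87) and Ptpn1 for Actn4 (0.81), the lowest of the 9. These values are a description over 18 libraries and were not tested.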

How the data were processed

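RNA from 18 libraries was sequenced from stranded mRNA libraries. The authors aligned reads to GRCm38 with STAR 2.7.0f, as the processing notes give, and deposited raw counts per gene. The study's methods name RSEM for TPM values, which were not used here, and the tool that made the counts and its use of strand are not given in the sources used here. Groups came from the sample titles. The members, lists and markers were chosen with earlier results of these data known.

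Counts were tested with edgeR 4.0.16 (R 4.3.3) by the quasi-likelihood F-test after filterByExpr and TMM scaling, in 1 fit of all 18 libraries, with Benjamini-Hochberg adjustment over 13844 genes and a threshold of FDR 0.1. The 8 comparisons were collagen against suspension, each density against suspension, the density slope, 4.4 against 1.7 mg/ml, and the suspension groups. The ratio of Actn1 to Actn4 used a pseudocount of 0.5 counts. Named genes were all members, up to 4 called genes a list with the largest change and at least 5 CPM (where none was called, the most abundant), and the most similar gene per member. Exon overlaps came from GENCODE M21, and GC content and length from the longest transcript, with loess offsets per library.

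Libraries of the same replicate number share a date and lane in their names. Their deviations from the group means correlated at 0.43 on average (45 pairs, -0.15 to 0.85), and the replicate number was used as a block in an alternative fit. Other pairs stood at -0.21 (90 pairs). That value is not a separate comparison, since subtracting the mean of a group ties the deviations of its replicates to each other. Alternatives also included DESeq2 1.42.0, its size factors, no filter, fewer libraries and leaving out replicates. No pair of libraries was identical. The scripts were tested on simulated data. At a depth of 13062944 to 28059839 counts, 3 counts equal 0.107 to 0.230 CPM.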

Additional observations from a re-analysis of the deposited data

Results flagged for a closer look

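Of 20 quantities examined in the 6 suspension libraries (10 members, the Actn1 to Actn4 ratio, the total count and 8 marker lists), 2 had a library far from the others, by the gap to the nearest library over the whole range. Chance gives this in about 1 in 20. Actn4 was high in replicate 3 of the suspension group titled without CCL19, at 466 CPM against 256 to 314 CPM in the others (0.723 of the range), and the same library held the highest Flna and Actn1 values. The summed neutrophil markers were high in replicate 2 of the suspension group titled plus CCL19, at 7121 CPM (0.635 of the range). The cause of either was not tested.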

How the results depend on the processing

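Under the 4 alternatives that kept all replicates and no block or offsets (DESeq2, its size factors in edgeR, no filter, only the libraries of the groups compared), 2 members were called in collagen against suspension in each that could be run. Only the libraries of the groups compared was not run there, as it is the same fit. Leaving out a replicate gave 0 to 0 members called in collagen against suspension and 0 to 0 at 4.4 mg/ml, and 4 to 12 of the other adhesion genes (21 without replicate 2 at 4.4 mg/ml alone). The replicate block, which brought 3 members called in collagen against suspension, gave 1 for a density of 2.6, 3 for 3.5 and 3 for 4.4 mg/ml, and 35 other adhesion genes, and changed no other count of members. Alternatives chosen after seeing the data followed. In collagen against suspension, 11.0% of all genes were called lower and 10.1% higher with the offsets. With block and offsets these shares were 18.6% and 19.7%. For the other counts of these alternatives and of DESeq2 the share over all genes is not given, so nothing about the members is drawn from them. The same holds for the fits with DESeq2 size factors, without the filter, with fewer libraries or with a replicate left out. The block in DESeq2 called 4 members in collagen against suspension, 1 for a density of 1.7, 1 for 2.6, 3 for 3.5 and 3 for 4.4, 37 other adhesion genes, and 5 in the density slope. The block without replicate 2 at 4.4 mg/ml called 4, with 1 for a density of 2.6, 3 for 3.5 and 3 for 4.4, 39 other adhesion genes, and 1 in the slope. GC and length offsets called 1 member in collagen against suspension and 0 at 4.4 mg/ml, and with the replicate block 5 (2 higher, 3 lower), with 3 for a density of 2.6 (Zyx and Ilk higher, Fermt3 lower), 1 for 3.5 (Zyx, higher) and 3 for 4.4 (all lower), 35 other adhesion genes and 3 in the slope. DESeq2 called 1 at 2.6 and 1 at 3.5 mg/ml, and only the libraries of the groups compared 0 at 4.4 mg/ml. The difference in the Actn1 to Actn4 log2 ratio was -0.12 to 0.034 when a replicate was left out and 0.0061 without replicate 2 at 4.4 mg/ml. Of the single-member values, 301 kept their direction and side of the threshold, 18 passed anew, 14 lost the threshold and 47 changed sign, all of the last with an adjusted p over the threshold in both fits; the cause was not tested. The values with a changed sign were, on the log2 scale, as follows. With GC and length offsets, in collagen against suspension Vcl 0.0441, Pxn 0.107, Actn1 0.0776, Actn4 0.17, Vasp 0.00583, in 4.4 mg/ml against suspension Vcl 0.00305, Zyx 0.153, Pxn 0.235, Actn1 0.00994, Actn4 0.0733, and in the density slope Vcl 0.0375, Actn1 0.0216, Actn4 0.0102. With the replicate block, in the density slope Vcl 0.0195. With the block in DESeq2, in the density slope Vcl 0.0325, and in 4.4 mg/ml against suspension Pxn 0.00809. With the block and without replicate 2 at 4.4 mg/ml, in the density slope Vcl 0.0662, Actn1 0.0601, Actn4 0.0161, and in 4.4 mg/ml against suspension Actn1 0.0984. With the replicate block and offsets, in the density slope Vcl 0.0736, in 4.4 mg/ml against suspension Zyx 0.136, Pxn 0.234, Actn1 0.0124, Actn4 0.0702, Vasp 0.00749, and in collagen against suspension Pxn 0.117, Actn1 0.133, Actn4 0.196, Vasp 0.0316. In DESeq2, in 4.4 mg/ml against suspension Pxn 0.0155. With DESeq2 size factors, in 4.4 mg/ml against suspension Pxn 0.0195. With 1 replicate or the library of replicate 2 at 4.4 mg/ml left out, the ranges that crossed 0 were in collagen against suspension Vcl -0.34 to 0.162, Pxn -0.32 to 0.0632, Actn1 -0.241 to 0.0182, Actn4 -0.199 to 0.146, Vasp -0.317 to 0.0181, in 4.4 mg/ml against suspension Pxn -0.0978 to 0.0808, Ilk -0.191 to 0.409, Actn1 -0.451 to 0.0558, Vasp -0.213 to 0.136, and in the density slope Vcl -0.095 to 0.131, Actn1 -0.234 to 0.14, Actn4 -0.165 to 0.0449, Vasp -0.058 to 0.0285. Counts of 4 to 48 in a library limit Ilk.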
